A study of Mus musculus with 8 samples.

Results

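The cluster of miR-322 and miR-503 was described by every assay of a mature miR-322, miR-503, miR-351, miR-450 or miR-542, whatever the letter, arm or species prefix. This gave 14 assays, of 11 mature miRNA names, among 752 miRNA assays in the profiling table. The data are RT-qPCR values of 8 RNA pools of gastrocnemius muscle from female C57Bl/6 mice, aged 6 to 8 weeks by the methods. The groups were CDTX + SCI, CDTX + SHAM, PBS + SCI and PBS + SHAM, each at D4 and D2 after the surgery, with 1 pool of 3 muscles per group. CDTX is cardiotoxin, a snake venom toxin that destroys muscle fibres and starts regeneration, and PBS is the saline injected in its place. SCI is a transection of the spinal cord and SHAM the control surgery. CDTX + SCI is the combination that leads to neurogenic heterotopic ossification, the growth of bone in muscle after injury of the central nervous system. By the methods CDTX went into the left hindlimb and PBS into the right of the same mouse, so PBS muscles come from animals with a CDTX injury in the other leg, and the pools of 1 surgery and day may share their mice, which the labels do not say. With 1 pool per group no spread between mice could be measured.

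MicroRNAs are short RNAs that pair with target mRNAs mainly through their seed, bases 2 to 8, and lower the output of these targets. miR-322 (named miR-424 in human) and miR-503 belong to the extended miR-15/16 family, which is known to restrain the cell cycle through cyclins and their partners. In mouse myoblasts both are known to rise on differentiation and to promote the loss of the cell cycle phosphatase Cdc25a. miR-351 comes from the same locus, has the seed of the miR-125 family and is known in mouse muscle progenitors as a miRNA of regeneration.

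In the RefSeq annotation of GRCm38.p6 the cluster held 7 hairpin genes on the minus strand of chromosome X, at chrX:53047997-53054349, a stretch of 6353 bases. In the order of transcription these were Mir322, Mir503, Mir351, Mir542, Mir450-2, Mir450-1 and Mir450b. The first 3 lay inside the span of the non-coding gene C430049B03Rik, and the other 4 lay outside it. Mir503 started 200 bases after Mir322 and Mir351 630 bases after Mir503, whereas 3767 bases separated Mir351 from Mir542. The mature sequences of the strands on which the results turn are shown 5′ to 3′ from RefSeq, with the seed in capitals.
mmu-miR-322-5p: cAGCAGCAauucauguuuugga
mmu-miR-322-3p: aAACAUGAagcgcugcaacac
mmu-miR-503-5p: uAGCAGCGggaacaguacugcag
mmu-miR-503-3p: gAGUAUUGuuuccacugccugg
mmu-miR-351-5p: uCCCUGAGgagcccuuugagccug
mmu-miR-450a-5p: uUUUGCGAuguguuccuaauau

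The 5p strands of miR-322 and miR-503 share bases 2 to 7 and differ at base 8. The seed of miR-322-5p is also that of 5 listed miRNAs encoded elsewhere, and the seed of miR-351-5p that of 2. The lists were set by name, so that other miRNAs may share these seeds. The listed miRNAs are shown because the same targets can be bound by them, so that the level of the family is more than that of the cluster.
mmu-miR-15a-5p: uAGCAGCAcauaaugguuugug
mmu-miR-15b-5p: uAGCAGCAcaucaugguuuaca
mmu-miR-16-5p: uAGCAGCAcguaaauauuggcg
mmu-miR-195a-5p: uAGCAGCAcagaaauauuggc
mmu-miR-497a-5p: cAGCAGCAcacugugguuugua
mmu-miR-125a-5p: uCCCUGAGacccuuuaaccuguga
mmu-miR-125b-5p: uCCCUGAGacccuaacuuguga

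Each hairpin yields a strand from its 5′ arm (5p) and one from its 3′ arm (3p), which are made in equal number and then kept or lost separately. In the hairpins of Mir322 (chrX:53054255-53054349, minus strand) and Mir503 (chrX:53053984-53054054, minus strand), both of GRCm38.p6, the arms that were assayed are in capitals.
Mir322: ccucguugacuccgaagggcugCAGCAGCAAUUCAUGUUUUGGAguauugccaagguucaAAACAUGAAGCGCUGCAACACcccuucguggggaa
Mir503: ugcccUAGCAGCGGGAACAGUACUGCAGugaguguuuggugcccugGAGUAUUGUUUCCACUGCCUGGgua

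The unit of measurement is the Cp, the PCR cycle at which an assay's signal appears. A signal that appears 1 cycle earlier comes from about 2 times as much miRNA, so that the Cp is a log2 scale that runs downward. The study kept miRNAs with a Cp of at most 32, called detected here, and 36 was the highest value recorded. Between 152 and 178 assays were detected per pool, and the median Cp of the detected assays lay between 29.26 and 29.72. The muscle miRNAs miR-133a-3p and miR-133b were among the earliest signals, with Cp values of 19.74 to 22.95 for miR-133a-3p, whereas the slow-fibre miRNAs miR-208b-3p and miR-499-5p were detected in no pool.

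Of the 14 assays of the cluster, 2 were detected in all 8 pools (mmu-miR-322-5p and rno-miR-322-3p), 7 in some pools and 5 in none. The 5 were mmu-miR-542-5p, hsa-miR-542-3p, mmu-miR-450a-2*, mmu-miR-450b-5p and mmu-miR-450b-3p. Of these hsa-miR-542-3p and mmu-miR-450a-2* stood at 36 in all 8 pools. Among the 112 values (14 assays in 8 pools), 34 passed the threshold. The CDTX pools of D4 held the most detected members, 7 of 14 in CDTX + SCI and 9 of 14 in CDTX + SHAM, against 3 in PBS + SCI and 2 in PBS + SHAM of the same day. At D2 the counts were 2 in CDTX + SCI and 3 in CDTX + SHAM, against 4 in PBS + SCI and 4 in PBS + SHAM. The share of all assays detected varied far less, with 23.67% in both CDTX pools of D4 and 20.2% to 22.6% in the other 6 pools. Some values fell close to the threshold. The assay hsa-miR-450a-5p had 32.02 in PBS + SHAM and 32.05 in PBS + SCI at D4, rno-miR-450a-5p had 32.02 in CDTX + SCI at D4, and mmu-miR-322-3p had exactly 32 in PBS + SHAM at D2, which counts as detected.

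**Figure D1:**
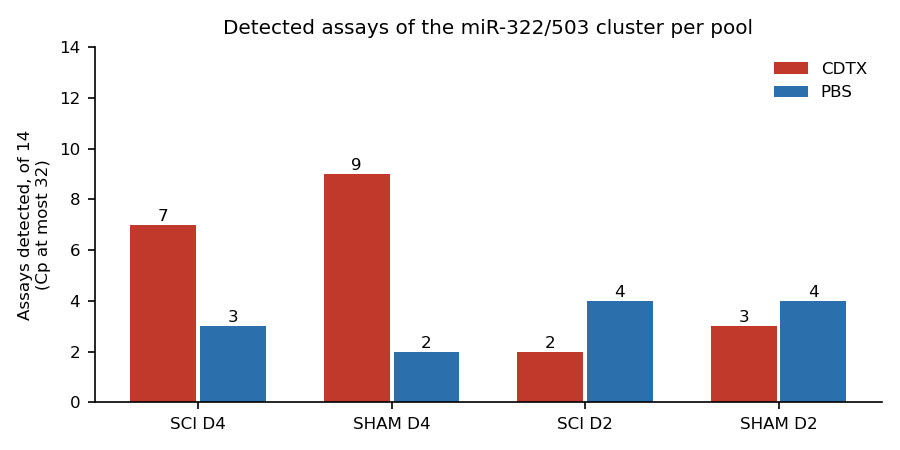
Number of the 14 assays of the cluster with a Cp of at most 32 (y axis) in each pool, with CDTX in red left of PBS in blue for each surgery and day. The CDTX pools of D4 reach 7 and 9 assays, and no other pool passes 4.

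miR-322-5p had the earliest signal of the members. Its Cp was 26.84 in CDTX + SCI and 27.07 in CDTX + SHAM at D4, against 27.52 in PBS + SCI and 27.54 in PBS + SHAM. At D2 it was 27.61 in CDTX + SCI and 27.92 in CDTX + SHAM, against 26.98 in PBS + SCI and 26.94 in PBS + SHAM. The raw signal thus came earlier after CDTX at D4 and later after CDTX at D2, and the groups of CDTX and PBS pools overlapped. Relative expression is on a log2 scale and sets each assay's Cp against the mean of 3 reference miRNAs named in the methods, miR-125b-5p, miR-23b-3p and miR-24-3p. On this scale miR-322-5p was highest in CDTX + SHAM at D4 (−1.46) and CDTX + SCI at D4 (−1.62), then followed CDTX + SCI at D2 (−2.10), PBS + SCI at D2 (−2.12), PBS + SHAM at D4 (−2.19), PBS + SHAM at D2 (−2.26), PBS + SCI at D4 (−2.35) and CDTX + SHAM at D2 (−2.38). As a measure of error, log2 ratios of 2 assays for 1 miRNA differed by 0.350 (root mean square of 68 differences, 14 miRNAs). This covers neither the pool nor the mouse. Neighbours in the order differed by less than this, except for CDTX + SCI at D4 against CDTX + SCI at D2 (0.47), a step that was 0.33 with miR-24-3p as the only reference.

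**Figure D2:**
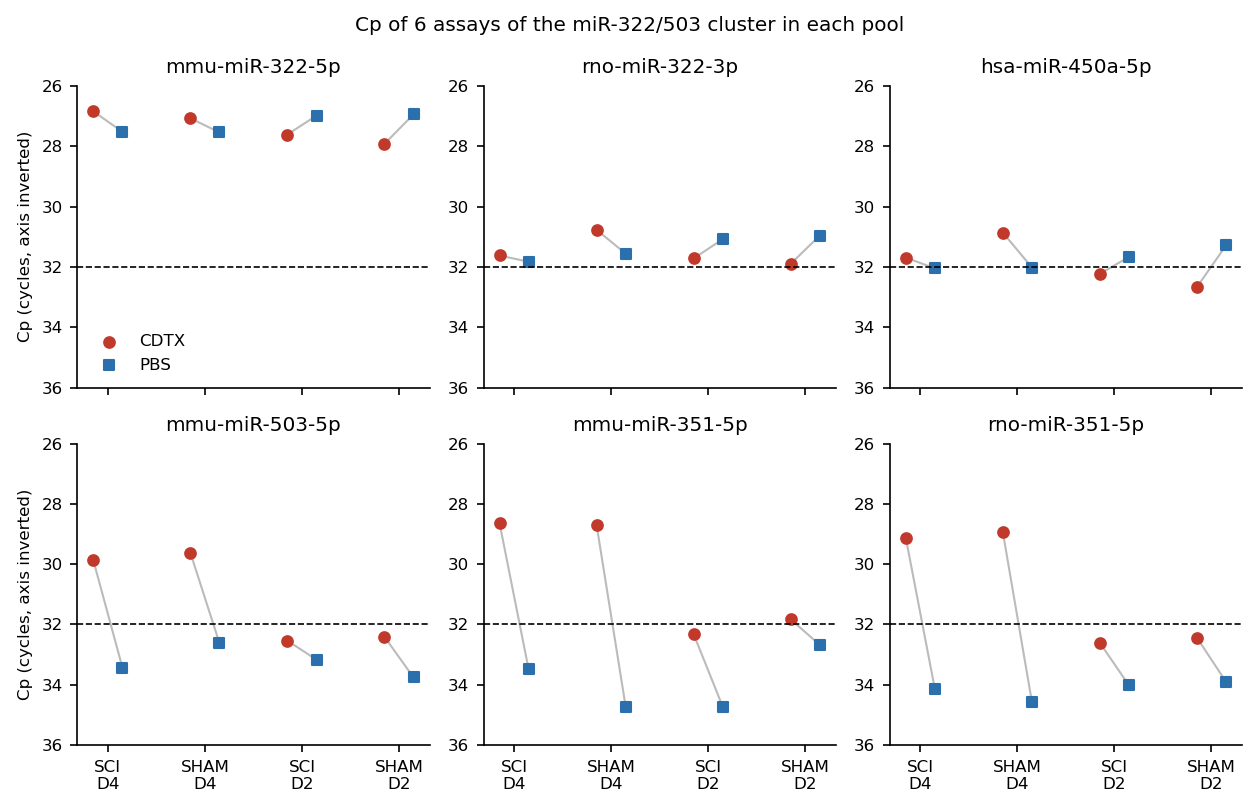
Cp (cycles, y axis inverted so that more miRNA is higher) of 6 assays in the 8 pools, with CDTX as red circles left of PBS as blue squares, a grey line joining the pools of 1 surgery and day, and the study's threshold of 32 dashed. miR-322-5p stays between 26.84 and 27.92, whereas miR-503-5p and miR-351-5p lie inside the threshold in the CDTX pools and beyond it in the PBS pools at D4.

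The CDTX over PBS log2 ratio of miR-322-5p was 0.72 with SCI and 0.73 with SHAM at D4, and 0.02 with SCI and −0.12 with SHAM at D2. Over the 5 other references the D4 ratios stayed positive (0.32 to 0.98 with SCI, 0.36 to 0.98 with SHAM), whereas the D2 ratios took either sign (−0.32 to 0.44 with SCI, −0.43 to 0.20 with SHAM). Across the 8 pools the additive limma fit on injection, surgery and day called 89 of the 123 assays detected in all pools (72.4%) at a Benjamini-Hochberg adjusted p under 0.05 for CDTX, 42 higher (34.1%) and 47 lower (38.2%). miR-322-5p was not among them, with a CDTX minus PBS difference of 0.34 (SE 0.204, 95% interval −0.13 to 0.81, limma adjusted p = 0.162). With miR-23b-3p as the only reference it passed, at 0.59 (limma adjusted p = 0.0163), and over the 5 other references tried the difference ran from 0.02 to 0.59. The difference between its responses at D4 and D2, tested as an interaction, was 0.78 (SE 0.277, limma adjusted p = 0.124), where 4.07% of assays were called, 3.25% for a larger and 0.813% for a smaller response at D4. For SCI against SHAM it was 0.02 (95% interval −0.44 to 0.49, limma adjusted p = 0.995), in a fit that called 0 of 123 assays and in which 5 had an unadjusted p under 0.05.

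The 3p strand, miR-322-3p, was read by a mouse and a rat assay, the rat target being 1 base shorter. In rno-miR-322-3p the Cp was 31.62 in CDTX + SCI and 30.77 in CDTX + SHAM at D4, against 31.83 in PBS + SCI and 31.56 in PBS + SHAM. At D2 it gave 31.72 in CDTX + SCI and 31.90 in CDTX + SHAM, against 31.08 in PBS + SCI and 30.96 in PBS + SHAM. CDTX + SHAM at D4 was the highest pool for this strand, with a log2 relative expression of −5.16, and the other 7 lay between −6.66 and −6.21. Its CDTX over PBS log2 ratio was 0.25 with SCI and 1.05 with SHAM at D4, and 0.01 with SCI and −0.08 with SHAM at D2. The D4 ratios over the other references were −0.15 to 0.51 with SCI and 0.68 to 1.30 with SHAM. The limma difference over the 8 pools was 0.31 (SE 0.264, adjusted p = 0.308), and it turned to −0.01 with miR-24-3p as the only reference. The mouse assay mmu-miR-322-3p passed the threshold in 5 of 8 pools, with Cp values of 31.57 and 31.02 in CDTX + SCI and CDTX + SHAM at D4, against 31.71 and 32.51 in PBS + SCI and PBS + SHAM. At D2 its Cp was 32.12 in CDTX + SCI and 33.18 in CDTX + SHAM, against 31.17 in PBS + SCI and 32 in PBS + SHAM. Where both assays could be compared, their log2 ratios differed by 0.510 (root mean square of 4 differences), and at most by 0.95. Within a pool the signal of the 5p strand came 3.70 to 4.78 cycles before that of rno-miR-322-3p, and this gap changed with CDTX by 0.03 ± 0.33 (mean ± SD of 4 matched pairs). Cp gaps between assays also hold differences in assay efficiency, so that only their change between pools compares miRNA levels.

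Under the study's threshold the cluster gave few ratios. In the 4 comparisons of CDTX with PBS, members were detected in both pools 3 times in D4 SCI, and 2 times in each of D4 SHAM, D2 SCI and D2 SHAM. A single ratio reached 2-fold, that of rno-miR-322-3p in D4 SHAM, where 30.1% of all assays were at least 2-fold higher and 24.3% lower. In the 3 others 0 members were at least 2-fold higher or lower. Of all assays, 22.5% were higher and 22.5% lower by this rule in D4 SCI, 18.2% higher and 18.9% lower in D2 SCI, and 23.4% higher and 17.0% lower in D2 SHAM. At D4, 4 members with SCI and 7 with SHAM were detected only in the CDTX pool and 0 only in the PBS pool. Of all 752 assays, 4.79% with SCI and 5.59% with SHAM were detected only in the CDTX pool, and 1.99% and 2.39% only in the PBS pool. These member counts hold both assays of miR-351-5p and, with SHAM, both of miR-450a-5p. At D2, 0 members with SCI and 1 with SHAM were detected only in the CDTX pool (1.20% and 1.86% of all assays). Only in the PBS pool were 2 with SCI and 2 with SHAM (3.46% and 3.86% of all assays).

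Among the members detected only in the CDTX pools at D4, miR-351-5p stood out. In mmu-miR-351-5p the Cp was 28.64 in CDTX + SCI and 28.70 in CDTX + SHAM at D4, against 33.49 in PBS + SCI and 34.73 in PBS + SHAM. At D2 it was 32.32 in CDTX + SCI and 31.83 in CDTX + SHAM, against 34.73 in PBS + SCI and 32.68 in PBS + SHAM. The rat assay, whose target is 1 base longer, gave 29.12 in CDTX + SCI and 28.93 in CDTX + SHAM at D4, against 34.14 in PBS + SCI and 34.57 in PBS + SHAM. At D2 it read 32.61 in CDTX + SCI and 32.44 in CDTX + SHAM, against 34.02 in PBS + SCI and 33.90 in PBS + SHAM. By both assays miR-351-5p was undetected in every PBS pool and well inside the threshold in both CDTX pools of D4.

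Since the PBS value lay beyond the threshold, a lower bound of the D4 ratio was taken with the PBS pool set to a Cp of 32. For mmu-miR-351-5p the level was then at least 10.6-fold higher in CDTX + SCI than in PBS + SCI and at least 11.8-fold higher in CDTX + SHAM than in PBS + SHAM. The rat assay gave at least 7.59-fold with SCI and at least 10.1-fold with SHAM. Between D4 and D2 of CDTX + SHAM, where mmu-miR-351-5p was detected on both days, the level was 9.19-fold higher at D4.

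miR-503-5p, next to miR-322 in the cluster, was also beyond the threshold in every PBS pool. Its Cp was 29.87 in CDTX + SCI and 29.62 in CDTX + SHAM at D4, against 33.43 in PBS + SCI and 32.62 in PBS + SHAM. At D2 the values were 32.54 in CDTX + SCI and 32.41 in CDTX + SHAM, against 33.17 in PBS + SCI and 33.76 in PBS + SHAM. It was detected only in the CDTX pools of D4. Its CDTX values of D2 lay past the threshold too, and 32.54 in CDTX + SCI was close to 32.62 in PBS + SHAM at D4. With PBS at a Cp of 32 the D4 level was at least 4.51-fold higher with SCI and at least 6.23-fold higher with SHAM. The opposite strand, miR-503-3p, had 32.63 in CDTX + SCI and 31.88 in CDTX + SHAM at D4, against 32.56 in PBS + SCI and 32.67 in PBS + SHAM. At D2 it had 32.92 in CDTX + SCI and 33.92 in CDTX + SHAM, against 32.62 in PBS + SCI and 32.70 in PBS + SHAM, so that its pools overlapped.

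No assay of miR-351 or miR-503 entered the fit over the 123 assays. An alternative fit took the 258 assays with a Cp below 36 in all pools, which uses values past the study's threshold, where few template copies are present and single values are least precise. It called 147 assays for CDTX (57.0%), 88 higher (34.1%) and 59 lower (22.9%). miR-351-5p rose by 3.99 on the log2 scale in the mouse assay (SE 0.741, 95% interval 2.24 to 5.74, limma adjusted p = 0.00415) and by 3.84 in the rat assay (SE 0.654, limma adjusted p = 0.00284). In descending order these differences were numbers 1 and 3 of the 258. The order holds only among these assays, since any assay at 36 in a pool is left out. One left out was mmu-miR-31-5p, with 36 in PBS + SCI and 29.01 in CDTX + SCI at D4. It had 35.03 in PBS + SHAM and 28.66 in CDTX + SHAM that day, and wider gaps than mmu-miR-351-5p in each matched pair. miR-503-5p rose by 2.59 (SE 0.436, 95% interval 1.56 to 3.62, limma adjusted p = 0.00276), and stayed called over the 194 assays with a Cp of at most 34. These 3 calls held with each of 5 other references, with surgery and day as a block and without each pool in turn, with adjusted p-values of up to 0.0166, 0.0131 and 0.0129. All 4 matched differences were positive for each of the 3 assays, as they were for 39.1% of the 258 assays.

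**Figure D3:**
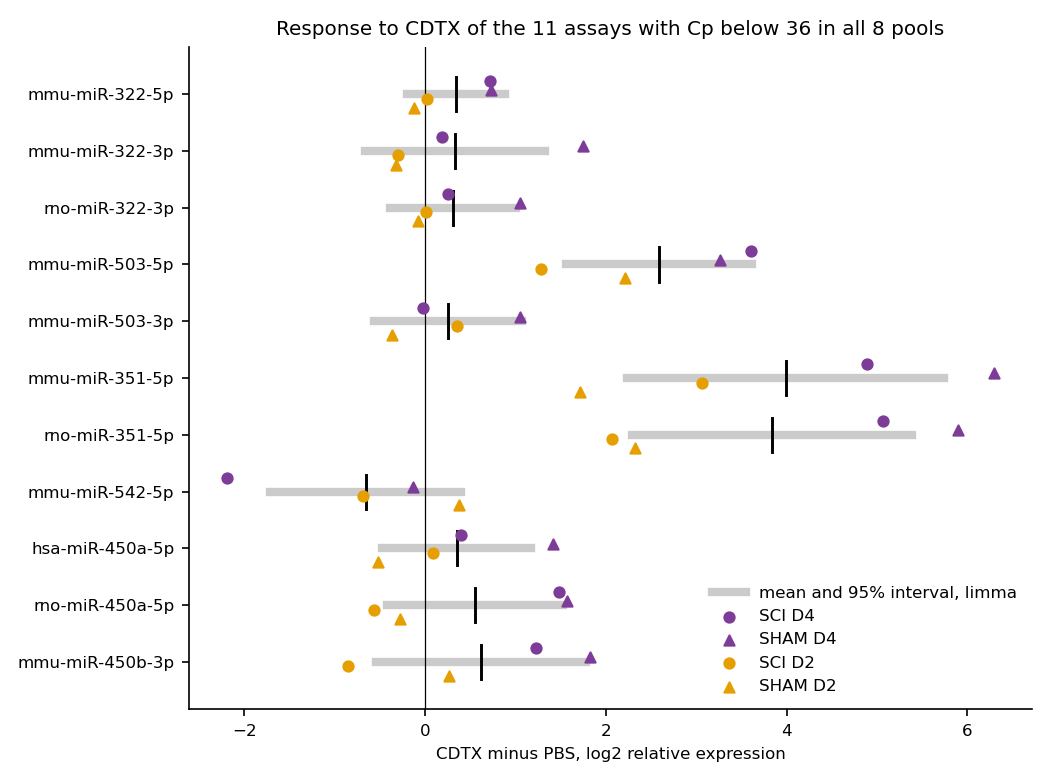
CDTX minus PBS log2 relative expression (x axis) of the 11 assays of the cluster with a Cp below 36 in all 8 pools, with a point per matched pair of pools (purple D4, orange D2, circles SCI, triangles SHAM), a black bar for the limma mean and a grey band for its 95% interval. The 2 assays of miR-351-5p and miR-503-5p lie wholly to the right of 0, and the D4 points exceed the D2 points for both.

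The other 8 assays in this fit were not called for CDTX. Their differences ran from −0.66 for miR-542-5p (limma adjusted p = 0.240) to 0.62 for miR-450b-3p (limma adjusted p = 0.308), with the 2 strands of miR-322 and miR-503-3p (0.25, limma adjusted p = 0.541) between them. mmu-miR-450b-3p was called only when PBS + SCI at D2 was left out (1.16, limma adjusted p = 0.0322). Members of 1 locus therefore spanned from no called change to about 16-fold (15.9-fold by the mouse assay of miR-351-5p).

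Differences between members of the same pool need no reference. These 12 pairs of members were chosen after their values had been seen. The Cp of miR-322-5p minus that of mmu-miR-351-5p was −1.80 in CDTX + SCI and −1.63 in CDTX + SHAM at D4, against −5.97 in PBS + SCI and −7.19 in PBS + SHAM. The change with CDTX averaged 3.65 ± 1.59 cycles (SD, 4 matched pairs). For miR-503-5p against miR-322-5p it averaged 2.25 ± 0.698, and for miR-503-5p against miR-503-3p 2.34 ± 1.11, each with 4 positive differences of 4. In CDTX pools of D4 the miR-503-5p signal preceded that of miR-503-3p by 2.76 cycles with SCI and 2.26 with SHAM, against −0.87 with SCI and 0.05 with SHAM in PBS pools. Both strands of miR-503 lay past the threshold in every PBS pool.

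The response to CDTX was larger at D4 than at D2 for miR-351-5p. By the rat assay the log2 response was 5.06 with SCI and 5.90 with SHAM at D4, and 2.06 with SCI and 2.32 with SHAM at D2. The difference of 3.29 between the days passed the interaction test (SE 0.383, limma adjusted p = 0.0112), in a fit that called 8 of 258 assays (3.1%). Without PBS + SHAM at D2, PBS + SCI at D2 or PBS + SHAM at D4 it missed the threshold (adjusted p = 0.0798, 0.0825 and 0.0852). By the mouse assay the difference was 3.20 (SE 0.892, 95% interval 1.03 to 5.38, limma adjusted p = 0.138), and its log2 ratio in PBS + SCI over PBS + SHAM at D2, where both values lie past the threshold, was −1.87 against 0.06 in the rat assay. For miR-503-5p the difference between days was 1.69 (SE 0.609, limma adjusted p = 0.217).

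Set directly between days, 3 members were detected at D4 and D2 of CDTX + SHAM and 2 were at least 2-fold higher at D4, mmu-miR-351-5p and rno-miR-322-3p (1.20, and 0.92 with the global mean), where 19.3% of all assays were higher and 4.14% lower. The ratio of miR-322-5p was 0.92. In CDTX + SCI the D4 over D2 ratios were 0.47 for miR-322-5p and −0.20 for rno-miR-322-3p (6.25% of all assays at least 2-fold higher, 9.03% lower). In PBS muscle miR-322-5p had −0.23 with SCI (0.0% of all assays higher, 1.27% lower) and 0.07 with SHAM (2.61% higher, 0.0% lower). Over the 8 pools the D4 minus D2 difference of miR-322-5p was 0.31 (limma adjusted p = 0.417), and limma called 0 of 123 assays for it, with 17 at an unadjusted p under 0.05.

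miR-450a-5p, at the far end of the cluster and encoded by 2 hairpins with the same mature 5p sequence, was read by a human and a rat assay. In hsa-miR-450a-5p the Cp was 31.69 in CDTX + SCI and 30.86 in CDTX + SHAM at D4, against 32.05 in PBS + SCI and 32.02 in PBS + SHAM. At D2 it was 32.23 in CDTX + SCI and 32.67 in CDTX + SHAM, against 31.67 in PBS + SCI and 31.29 in PBS + SHAM. Its CDTX minus PBS log2 difference was 0.40 with SCI and 1.42 with SHAM at D4, and 0.09 with SCI and −0.52 with SHAM at D2. In each pair 1 pool lay past the threshold, the PBS pool at D4 and the CDTX pool at D2. None of these differences therefore counts under the 2-fold rule, which needs detection in both pools. The rat assay, whose target differs from the mouse sequence by A21G (mouse base, position from the 5′ end, rat base), gave 32.02 in CDTX + SCI and 31.87 in CDTX + SHAM at D4, against 33.46 in PBS + SCI and 33.18 in PBS + SHAM. At D2 its values were 33.45 in CDTX + SCI and 33.19 in CDTX + SHAM, against 32.23 in PBS + SCI and 32.05 in PBS + SHAM.

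By rno-miR-450a-5p the log2 response to CDTX was 1.48 with SCI and 1.57 with SHAM at D4, and −0.57 with SCI and −0.28 with SHAM at D2. The difference of 1.95 between days was called (SE 0.332, limma adjusted p = 0.0391), but not with any 1 pool left out (adjusted p = 0.0765 to 0.169). By the other assay it was 1.13 (SE 0.557, 95% interval −0.23 to 2.48, limma adjusted p = 0.288). Among the weakest members, miR-450b-3p had its lowest Cp, 32.37, in CDTX + SHAM at D4 and stayed above 33 in the others. miR-450b-5p had 34.92 in CDTX + SCI and 34.24 in CDTX + SHAM at D4, and 36 in both PBS pools of that day. miR-542-5p had Cp values of 32.79 to 35.02, with its lowest in PBS + SCI at D4.

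The comparison of CDTX + SCI with CDTX + SHAM asks what the spinal injury adds in damaged muscle. At D4, 7 member assays were detected in both pools, with miR-322-3p and miR-351-5p counted by 2 assays each. All 7 log2 ratios were below 0, with a median of −0.65. Most of all 168 assays were below 0 too, with a median of −0.31. With the global mean as reference, 6 of the 7 were below 0 and miR-322-5p was at 0.14, with a median of −0.34 against 0.00 over all assays. Of the 7, 2 were at least 2-fold lower, rno-miR-322-3p (−1.25) and hsa-miR-450a-5p (−1.23), where 10.7% of all assays were lower and 0.0% higher. miR-351-5p (−0.34 and −0.59 by its 2 assays) and miR-322-5p (−0.17) were closest to the median of all assays. The ratios have no test, since each rests on 2 pools. With the global mean rno-miR-322-3p was at −0.94 and hsa-miR-450a-5p at −0.92, both under 2-fold. At D2 the ratios were 0.28 for miR-322-5p and 0.15 for rno-miR-322-3p, with 1.37% of all assays at least 2-fold higher and 0.0% lower.

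In PBS muscle the SCI over SHAM log2 ratios of miR-322-5p were −0.16 at D4, where 0.676% of all assays were at least 2-fold lower and 0.0% higher, and 0.14 at D2. Both were under the difference between assays. mmu-miR-322-3p was 2-fold higher with SCI at D2 (1.01, where 1.21% of all assays were, and 0.606% were lower) but 0.86 with miR-23b-3p as the only reference, whereas rno-miR-322-3p gave 0.06 for the same strand and pools. Whether the response to CDTX differed between SCI and SHAM was tested as an interaction, and no assay was called in either fit (0 of 123 and 0 of 258 by limma, with 0 and 6 at an unadjusted p under 0.05). For miR-351-5p this difference was −0.02 by the mouse assay, with a 95% interval of −3.87 to 3.83, so that large differences in either direction could not have been seen. By the rat assay the response with SCI was 0.685-fold that with SHAM.

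The seed family of miR-322-5p and miR-503-5p gave mixed directions. Of the 5 listed family members encoded elsewhere, 4 were in the fit over 123 assays. Of these, 2 were called higher and 1 lower with CDTX, with a median of 0.31 against −0.01 over all assays. miR-15a-5p rose by 1.25 (limma adjusted p = 7.76e-04) and miR-16-5p by 0.53 (limma adjusted p = 0.00926), while miR-195a-5p fell by 0.51 (limma adjusted p = 0.0447). miR-497a-5p, which shares its transcript with miR-195a, had a difference of 0.09 (limma adjusted p = 0.618). miR-15b-5p was in the fit over 258 assays only, with a difference of 2.29 (limma adjusted p = 3.04e-04). Its log2 responses were 2.77 with SCI and 2.17 with SHAM at D4, and 1.75 with SCI and 2.45 with SHAM at D2, so that it was up on both days. miR-16-5p is 1 of the 4 references of the authors' own normalized table. Of the family of miR-351-5p, miR-125a-5p rose by 0.68 (limma adjusted p = 0.00387), and miR-125b-5p, a reference, had a difference of −0.07.

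**Figure D4:**
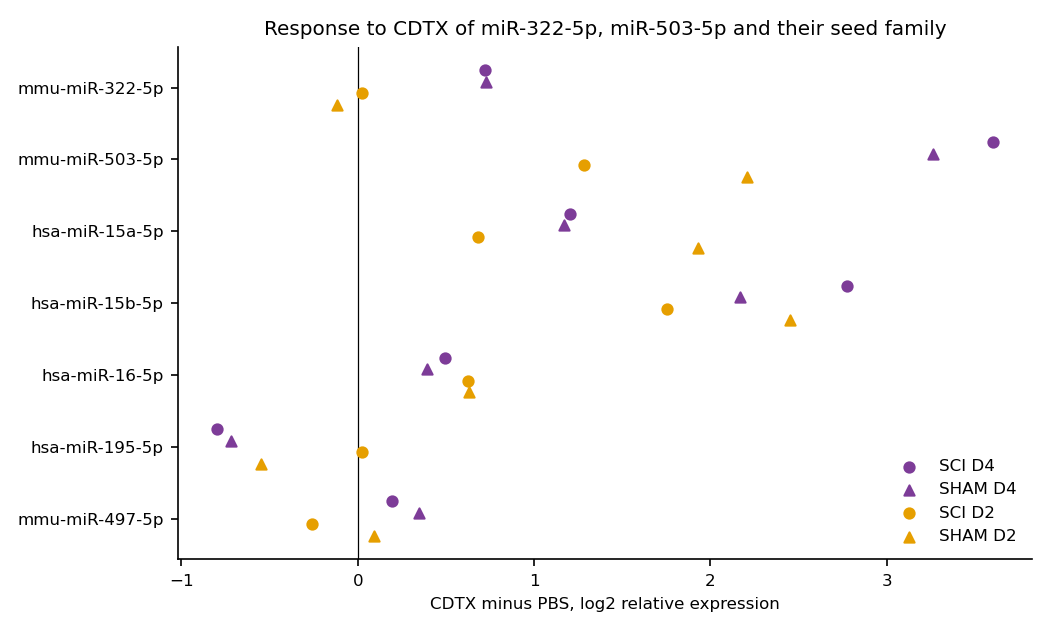
CDTX minus PBS log2 relative expression (x axis) of miR-322-5p, miR-503-5p and the 5 listed miRNAs with the seed of miR-322-5p. Each matched pair of pools has a point (purple D4, orange D2, circles SCI, triangles SHAM). miR-322-5p is near 0 at D2 and at 0.72 and 0.73 at D4, miR-503-5p and miR-15b-5p are above 1 in all pairs, and miR-195-5p is below 0 in 3 of 4.

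Markers of other cells moved with CDTX in the same pools, and their part in the responses above was not tested. In whole muscle a miRNA's level cannot tell more cells of a type apart from more miRNA per cell. Of the 6 leukocyte miRNAs, 3 were in the fit over 123 assays, of which 2 were called higher and 1 lower, and their summed relative expression was 1.80 to 3.18 in CDTX pools and 0.402 to 0.439 in PBS pools. miR-142-5p and miR-223-3p, which mark leukocytes, had log2 responses of 3.58 and 3.07 with SCI and 3.69 and 3.27 with SHAM at D4, and of 3.75 and 3.89 with SCI and 3.56 and 4.04 with SHAM at D2. Of these 4 pairs of days, the D4 response exceeded that of D2 in 1, that of miR-142-5p with SHAM. In the fit over assays with a Cp below 36 in all pools, miR-142-3p of the list rose too, by 3.97 (limma adjusted p = 1.02e-04). Its Cp was 28.53 to 29.18 in CDTX pools and 31.56 to 32.83 in PBS pools. The rest of the list went otherwise. miR-155-5p was detected in no pool, and miR-146a-5p rose less, by 1.05 in the same fit (limma adjusted p = 0.00939). With SCI the log2 response of miR-146a-5p was 0.94 at D4 and 0.62 at D2. The 1 called lower, miR-150-5p (limma adjusted p = 0.0294), had −1.40 with SCI and −1.70 with SHAM at D4. At D2 it had −0.22 with SCI and 0.01 with SHAM. Of the 6 striated muscle miRNAs, 4 were in the fit and 3 were called lower (sums of 15.98 to 24.4 in CDTX pools and 66.4 to 102 in PBS pools). The fourth, miR-206, a miRNA of newly formed fibres, had responses of 0.93 with SCI and 1.53 with SHAM at D4, and of −1.58 with SCI and −1.14 with SHAM at D2. It was, beside rno-miR-351-5p and rno-miR-450a-5p, among the 8 assays called for a difference between days.

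Of the 5 stromal and smooth muscle miRNAs, all in the fit, 3 were called higher and 2 lower (sums of 1.55 to 2.56 in CDTX pools and 1.84 to 2.22 in PBS pools). Of the 2 endothelial miRNAs 1 was in the fit and called lower (sums of 0.528 to 1.48 in CDTX pools and 1.25 to 1.59 in PBS pools). The 2 red cell and the 2 neuronal miRNAs were not in the fit, with sums of at most 0.0313 in any pool. The miR-17 clusters, known from dividing cells, had 8 of 11 assays in the fit, of which 7 were called higher and 0 lower, with a median difference of 1.13. None of the marker miRNAs stood at 36 in all pools, whereas miR-20b-5p of the miR-17 list did.

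By Pearson's r over the 8 pools, the 5 detected miRNAs whose relative expression was most like that of miR-322-5p were miR-130a-3p (0.921), miR-532-3p (0.894), miR-152-3p (0.873), miR-34a-5p (0.866) and miR-362-3p (0.855), out of 118 candidates. For rno-miR-322-3p they were miR-574-3p (0.951), miR-127-3p (0.921), miR-152-3p (0.895), miR-1900 (0.865) and miR-455-3p (0.841). miR-152-3p is on both lists and had log2 responses of 0.46 with SCI and 0.52 with SHAM at D4, and of −0.05 with SCI and 0.00 with SHAM at D2. These correlations are descriptions, since all assays of a pool share its RNA and its references.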

How the data were processed

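The authors profiled pooled total RNA by reverse transcription and LNA SYBR Green qPCR (miRNome Mouse&Rat panel) and took the quantification cycle as the second derivative maximum. The first table deposited by the authors holds these Cp values, on a log2 scale that runs downward and with no normalization. The second deposited table holds the ratio of each assay to reference miRNAs. In all pools its values match a normalization to the mean Cp of 4 references (miR-125b-5p, miR-24-3p, miR-23a-3p and miR-16-5p), whereas the methods name 3. The third holds the authors' own fold changes and was not used. Relative expression was recomputed with the 3 references. Of 755 assays, 3 that read no miRNA were dropped. Log2 values were fitted with limma 3.58.1 (R 4.3.3) on injection, surgery and day (4 residual degrees of freedom), or with an interaction (3), with Benjamini-Hochberg adjustment over all assays fitted and a threshold of 0.05. The fit was tested on simulated data. Ratios of 2 pools have no test and were called at 2-fold. Tests over the pools count each pool as a replicate of its injection, surgery and day, and their errors hold pool and assay together. The depth of a Cp is unknown in copies.

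Named were all members, the 5 most like each fully detected member, and the list miRNAs. The members, lists and comparisons were chosen with earlier results of these data known. Alternatives were 5 references, Cp limits of 30, 34 and below 36, folds of 1.5 and 3, 1 assay per miRNA, each pool left out and surgery by day as a block. The reference, pool and block settings of the fit below Cp 36, the bound at a Cp of 32 and the within-pool differences were added after seeing the data. Sequences are from RefSeq (GRCm38.p6), and the rat targets from the study's assay list.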

Additional observations from a re-analysis of the deposited data

Results flagged for a closer look

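The response to CDTX differed between D4 and D2 by the interaction test for 2 assays of the cluster. Both were in the fit over assays with a Cp below 36 in all pools, which called 8 of 258 (3.1%). With 1 pool left out, rno-miR-351-5p stayed called in 5 of 8 fits and rno-miR-450a-5p in 0 of 8. For rno-miR-351-5p the response was 3.29 larger at D4 on the log2 scale (5.06 and 5.90 at D4, 2.06 and 2.32 at D2, with SCI and SHAM), and mmu-miR-351-5p gave 3.20 without passing. For rno-miR-450a-5p it was 1.95 larger, with a positive response in both D4 pairs and a negative one in both D2 pairs, and hsa-miR-450a-5p gave 1.13 without passing.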

How the results depend on the processing

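The directions and calls of miR-351-5p and miR-503-5p for CDTX did not change under the alternatives run on them. Counts over all assays did change. For CDTX, 89 assays were called, against 48 with a Cp of at most 30, 147 below 36 and 75 to 91 with 1 pool left out. The CDTX by day interaction had 5 calls, against 12 with the global mean as reference, 0 with miR-24-3p alone, 16 with miR-125b-5p alone, 2, 8 and 8 with Cp limits of 30, 34 and below 36, and 0 to 15 with 1 pool left out (0 without PBS + SHAM at D2, 15 without CDTX + SCI at D4). Leaving out 1 pool gave 0 to 1 call for D4 over D2 (1 without PBS + SHAM at D2) and 0 to 1 for CDTX by SCI (1 without CDTX + SHAM at D4). Of 34 member ratios 6 were at least 2-fold, against 1 with the global mean, and 12 were at least 1.5-fold and 1 at least 3-fold. Other Cp limits change the ratios that exist, with 0 of 15 at least 2-fold at a limit of 30, 34 of 100 at 34 and 51 of 134 below 36. The share of all assays was not counted at these other limits, folds and references. These counts therefore describe the settings and give no trait particular to the cluster. Of 112 member values 34 were detected, against 14, 75 and 92 at Cp limits of 30, 34 and below 36.

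The CDTX difference was called for miR-322-5p with miR-23b-3p alone (0.59) and was −0.01 for rno-miR-322-3p with miR-24-3p alone. These single references also moved the median CDTX difference of all 123 assays from −0.01 to −0.33 (miR-24-3p, 30 higher and 56 lower) and 0.25 (miR-23b-3p, 54 higher and 35 lower). The CDTX by day difference of rno-miR-450a-5p was no longer called with miR-24-3p (1.815) or miR-23b-3p alone (1.715) or without any 1 pool (1.74 to 2.16). That of rno-miR-351-5p was 2.98 to 3.60 with 1 pool left out.

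Differences that were not called turned sign as follows. For miR-322-5p, SCI gave −0.05 with miR-23b-3p alone and −0.14 to 0.17 with 1 pool left out, and CDTX by SCI gave −0.04 with miR-24-3p alone and −0.34 to 0.48. For rno-miR-322-3p, leaving out 1 pool gave −0.145 to 0.35 for D4 over D2 and −1.05 to 0.34 for CDTX by SCI. For CDTX below a Cp of 36 it gave −0.021 to 0.67 for hsa-miR-450a-5p, −0.17 to 0.64 for mmu-miR-322-3p and −0.10 to 0.56 for miR-503-3p, which was −0.065 with miR-24-3p alone. The cause of these changes was not tested. Of the single ratios of 2 pools, 160 of 170 values under the alternatives (34 ratios, 5 references) moved by less than the difference between assays. The sign turned in 18 of the 170, in 13 ratios of at most 0.25 in size, and in 0 of the ratios that were at least 2-fold. The labels carry no replicate numbers, and a block for surgery and day left the calls of the members for CDTX as they were.

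The main limits are 1 pool per condition, PBS muscles from mice with CDTX in the other leg, and Cp values past the threshold for miR-351-5p and miR-503-5p in PBS muscle.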
